A study of Rattus norvegicus with 9 samples.

Results

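Hmgcs1, Sqle, Insig1, Srebf2, Fdft1, Idi1, Lss and Cyp51 are 8 genes of cholesterol synthesis and of its control by the transcription factor SREBP2. They were taken by gene symbol, as genes whose promoters are known for joint control by SREBP and NF-Y. All 8 were found among the 28935 rows of the count table and in the table of RPKM (reads scaled to gene length and to library size), and all 8 were among the 14151 genes with enough counts to be tested. The data are mRNA sequencing libraries of cultured rat heart muscle cells that carried one of 3 adenoviruses, with 3 libraries per virus. The first group had received the virus for Nfya, the second the virus for Nfe2l1, and the third the virus for GFP, a fluorescent protein, as the control. What the groups share is the culture: ventricular myocytes of Sprague Dawley rats 1 or 2 days old, 48 h in medium with 3% fetal bovine serum, and then 48 h without serum with 8 µL of virus per mL. The promoter that drives each viral gene and the number of cultures or litters behind the libraries are not stated in the labels. The p-values therefore rest on the spread from library to library alone, and that spread may be technical.

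Cholesterol is built from acetyl-CoA through mevalonate, farnesyl diphosphate, squalene and lanosterol. SREBP2, the product of Srebf2, is made as a precursor in the membrane of the endoplasmic reticulum, where SCAP carries it and INSIG proteins hold the complex back while sterols are plentiful. When sterols run low, the complex moves to the Golgi, proteases release the active part of SREBP2, and this part binds sterol regulatory elements in the genes of nearly every enzyme of the pathway. NF-Y, a trimer of NFYA, NFYB and NFYC that recognises the CCAAT box, is a well-known partner of SREBP at such promoters. NFE2L1 is also a protein of the endoplasmic reticulum membrane, and in mouse liver it has been described as a sensor of excess cholesterol.

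The libraries held 5712123 to 7310774 counts. Nfya itself stood at 89.0 ± 0.683 CPM (counts scaled to library size; SD, n = 3 in each group) with the Nfya label, 92.3 ± 2.20 CPM with the Nfe2l1 label and 80.4 ± 2.19 CPM in GFP libraries, and Nfe2l1 stood at 223 ± 4.79, 239 ± 6.14 and 241 ± 6.09 CPM in the same order. Nfya was called higher than in GFP with both viruses (log2 fold change 0.15 and 0.20), and Nfe2l1 was called lower with the Nfya virus (-0.11, adjusted p = 0.00784) and was not called with its own (-0.0075, adjusted p = 0.856). Neither factor's counted transcript was highest in the group that carries its virus. The labels do not say whether RNA from a viral copy would be counted under the rat gene, so these counts may not measure the virus, and every direction below rests on the labels of the groups. The 3 Nfya-labelled libraries differed from each other by no more than sampling noise (chi-square per gene of 0.980 to 1.01, p = 0.114 to 0.956). Pairs within the other groups differed more, at 1.07 to 1.65. Results for the Nfya-labelled group were therefore also computed with its libraries summed as 1 sample, a choice made with the data already seen. Markers of several cell types were counted. Their counts stand beside 24.3% of all genes tested called higher and 27.9% lower with the Nfya virus against GFP. With the Nfe2l1 virus these shares were 28.9% and 29.7%. The summed level of 10 cardiomyocyte markers was 3256 to 3304 CPM in the Nfya-labelled, 2934 to 3237 CPM in the Nfe2l1-labelled and 3019 to 3352 CPM in GFP libraries, and against GFP 3 of the 10 were called higher and 0 lower with the Nfya virus, and 0 higher and 1 lower with the Nfe2l1 virus. That of 8 fibroblast markers was 1376 to 1389, 1164 to 1248 and 736 to 771 CPM, and 7 of the 8 were called higher against GFP with each virus. Col1a2 differed by -2.24 ± 0.79 and -1.15 ± 0.68 on the log2 scale, and only the first was called (adjusted p = 0.0264). Its counts were low and overlapped, at 7, 10 and 23 in Nfya-labelled, 64, 7 and 15 in Nfe2l1-labelled and 6, 117 and 59 in GFP libraries. Epicardial and mesothelial markers, 5 genes, summed to 75.1 to 87.7, 95.3 to 114 and 17.7 to 25.0 CPM, and all 5 were called higher with each virus. The 5 endothelial markers summed to 188 to 192, 192 to 212 and 206 to 208 CPM, a sum in which the members went both ways. Cdh5 (log2 fold changes 1.42 and 1.10), Tek (1.77 and 1.87) and Emcn (1.07 and 0.70) were called higher with each virus, while Kdr, the most abundant, was called lower (-1.08 and -0.86). The 5 markers of smooth muscle and pericytes summed to 801 to 816, 558 to 571 and 739 to 744 CPM, also with members in both directions. Pdgfrb was called higher with each virus (1.45 and 0.81) and Cspg4 lower (-0.38 and -0.88), Myh11 was called higher with the Nfya virus (0.82) and Acta2 lower with the Nfe2l1 virus (-0.17). The 5 macrophage markers summed to 50.4 to 61.5, 63.4 to 69.8 and 43.3 to 57.5 CPM, and of the 4 tested 3 were called higher and 1 lower with the Nfya virus, and 2 higher and 0 lower with the Nfe2l1 virus. Pecam1, also listed for endothelium, was not found by symbol among the counted genes. No marker that had counts was at 0 in any whole group. In bulk RNA, a change in the share of a cell type and a change of RNA per cell cannot be told apart, and the part of these markers in the results below was not tested.

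The promoter stretches are shown because joint binding of SREBP and NF-Y is what groups these genes. Of the 8 genes, 6 were matched by symbol in the promoter table of RefSeq on build GRCr8 (all but Sqle and Fdft1), and the 250 bases before each start were searched on both strands. Letters searched were CCAAT (reverse complement ATTGG), the core that NF-Y binds; TCACNCCAC, a strict form of the sterol regulatory element; and CACNNCAC, a looser form. TCACNCCA, a shorter form that lies within the strict one, was added after the Srebf2 stretch had been seen. Capitals below mark the CCAAT core and, in Srebf2, also the shorter sterol element, and each stretch is written in the direction of the gene.
Hmgcs1, GRCr8, chr2:53382102-53382189, + strand: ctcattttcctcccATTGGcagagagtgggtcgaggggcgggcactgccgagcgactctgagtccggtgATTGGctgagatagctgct
Idi1, GRCr8, chr17:66547541-66547604, - strand: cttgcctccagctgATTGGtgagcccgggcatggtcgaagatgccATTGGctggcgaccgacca
Insig1, GRCr8, chr4:8057944-8057976, - strand: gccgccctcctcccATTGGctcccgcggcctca
Srebf2, GRCr8, chr7:115543137-115543196, + strand: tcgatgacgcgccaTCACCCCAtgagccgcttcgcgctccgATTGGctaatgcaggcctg
Lss, GRCr8, chr20:12118294-12118326, - strand: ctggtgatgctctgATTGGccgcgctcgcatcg

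A CCAAT core was found in 5 of these 6 promoters, all but that of Cyp51, and each of its copies read ATTGG along the gene. Among all 33469 promoters of the table, 34.0% held at least 1 core and 9.42% held 2 or more. Of 32 other genes from the pathway lists used below that had a promoter entry, 20 held a core. Hmgcs1 and Idi1 held 2 each, which began 55 and 31 bases apart. The cores began 188 and 133 bases before the start in Hmgcs1, 193 in Insig1, 129 in Srebf2, 66 and 35 in Idi1, and 82 in Lss. The strict sterol element was in none of the 6 windows, against 0.974% of all promoters, and the looser form was in 1, Insig1, against 13.3%. The shorter form was in Srebf2 alone (3.24% of all promoters), 27 bases ahead of its CCAAT core. Such matches are descriptions of letters, and binding was not measured. Over the genes tested that had a single promoter entry, 25.7% of the 2187 with 1 core and 26.2% of the 1201 with 2 or more were called higher with the Nfya virus against GFP, where it was 24.4% of the 6237 with none. The shares called lower were 26.7%, 27.3% and 30%. With the Nfe2l1 virus against GFP, the shares called higher were 32.6%, 27.6% and 29.8% in the same order, and those called lower 27%, 32.6% and 31%.

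**Figure D1:**
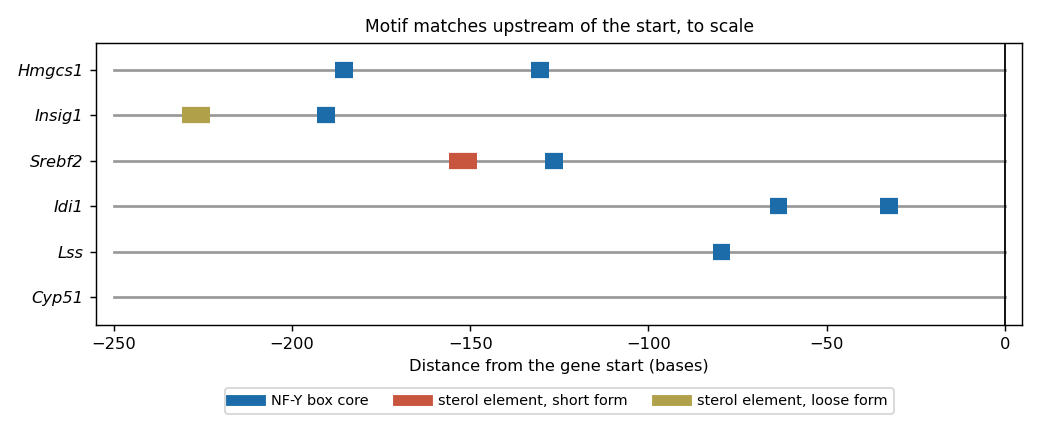
Positions of motif matches in the 250 bases before the start of 6 genes, with distance from the start in bases on the horizontal axis. Boxes mark the core that NF-Y binds, the shorter and the looser sterol element; Hmgcs1 and Idi1 carry 2 cores each, and Cyp51 has no match.

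By length-scaled level, Hmgcs1 was the highest of the 8 genes in every group and Lss the lowest. Hmgcs1 averaged 97.8 ± 0.740 RPKM in the Nfya-labelled, 94.9 ± 4.09 RPKM in the Nfe2l1-labelled and 105 ± 5.52 RPKM in GFP libraries (SD, n = 3 each), and Lss 10.8 ± 1.06, 14.1 ± 0.762 and 10.01 ± 0.911 RPKM. Between them the order of levels in GFP libraries was Cyp51, Fdft1, Idi1, Sqle, Srebf2 and Insig1, and no neighbours in this order overlapped in their libraries. In the Nfya-labelled libraries Sqle, at 68.7 ± 2.36 RPKM, stood above Idi1, at 63.8 ± 1.203 RPKM, again without overlap between neighbours. In the Nfe2l1-labelled libraries Fdft1, Idi1 and Sqle lay at 68.2 ± 0.942, 67.2 ± 2.30 and 67.1 ± 0.981 RPKM and overlapped.

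Coverage and depth moved with some of these values. Mean counts per base of gene length ran from 0.0766 in Lss to 0.648 in Hmgcs1, and 2 of the 8 genes, Hmgcs1 and Cyp51, lay above 0.5. In the shallowest library, GFP replicate 3, 5 of the 8 genes stood above both other GFP libraries, as did 31.6% of all genes tested. In the deepest, Nfe2l1 replicate 3, 7 of the 8 stood below both others of their group, as did 36.1% of all genes. The changes were therefore also computed without these 2 libraries together, and with counts corrected for an assumed ceiling of 1.6 counts per base, both chosen after the data were seen.

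Against GFP, the Nfya-labelled libraries had more transcript of the 2 enzymes that make and oxidise squalene, Fdft1 and Sqle, and slightly less of Hmgcs1 and Srebf2. No change of the 8 genes exceeded 20.4%. In counts, 2 of 8 genes were called higher and 2 lower by edgeR at an adjusted p below 0.05, where 24.3% of all genes tested were called higher and 27.9% lower (52.2% in either direction), so the share of genes called was near the background. The libraries of both groups did not overlap in 6 of 8 genes, against 61.6% of all genes. The median log2 fold change of the 8 genes was 0.06, beside -0.02 for all genes tested, and the median absolute log2 fold change was 0.10, beside 0.20. Sqle and Fdft1 kept their calls in all 24 alternatives. The lower calls were lost in most alternatives: 0 of 8 genes were called lower without Nfya replicate 1 or 3, without Nfe2l1 replicate 1 or 3, without GFP replicate 1, with DESeq2 or with the Nfya-labelled libraries summed, and 1 without GFP replicate 2 or 3. The authors' deposited table has 3 of the 8 genes higher (Sqle, Insig1 and Fdft1) and 0 lower at an FDR below 0.05. Its log2 fold changes lay above those reported here by a like amount in all 8 genes. Sqle was at 0.303 there and 0.267 here, and Insig1 at 0.134 and 0.0976. Hmgcs1 was at -0.0829 and -0.118, and Srebf2 at -0.0383 and -0.0743.

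Against GFP, the Nfe2l1-labelled libraries had more transcript of Lss, Sqle, Insig1 and Idi1, and less of Hmgcs1 and Cyp51. Lss, the cyclase that closes the sterol ring, changed most, at 1.41-fold. In counts, 4 of 8 genes were called higher and 2 lower, where 28.9% of all genes were called higher and 29.7% lower (58.6% in either direction). The libraries did not overlap in 5 of 8 genes, against 64% of all genes. The median log2 fold change was 0.08, beside -0.01 for all genes, and the median absolute one was 0.15, beside 0.24. The 4 higher calls and the lower call of Cyp51 stood in all 24 alternatives, and the authors' deposited table has 4 higher and 2 lower genes. Hmgcs1 was not called without Nfe2l1 replicate 3 (adjusted p = 0.112) or without both libraries of extreme depth (adjusted p = 0.145), which left 1 gene called lower.

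Set directly against each other, the Nfya-labelled libraries had less Lss and Srebf2 and more Fdft1 than the Nfe2l1-labelled libraries. That made 1 of 8 genes called higher and 2 called lower, where 25.2% of all genes were called higher and 25.4% lower (50.6% in either direction), and 6 of 8 genes did not overlap, against 60% of all genes. The median log2 fold change was -0.02, beside 0.01 for all genes, and the median absolute one 0.08, beside 0.19. The call of Lss stood in all 24 alternatives, that of Fdft1 in 19 and that of Srebf2 in 10. Only 1 gene was called lower without Nfya replicate 1 or 3, Nfe2l1 replicate 1 or 2, or GFP replicate 1 or 2, and 3 without GFP replicate 3. None was called higher without Nfya replicate 2, and 2 were without GFP replicate 3. Both comparisons with GFP use the same GFP libraries, so a gene that moved alike in both rests partly on the same samples.

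**Figure D2:**
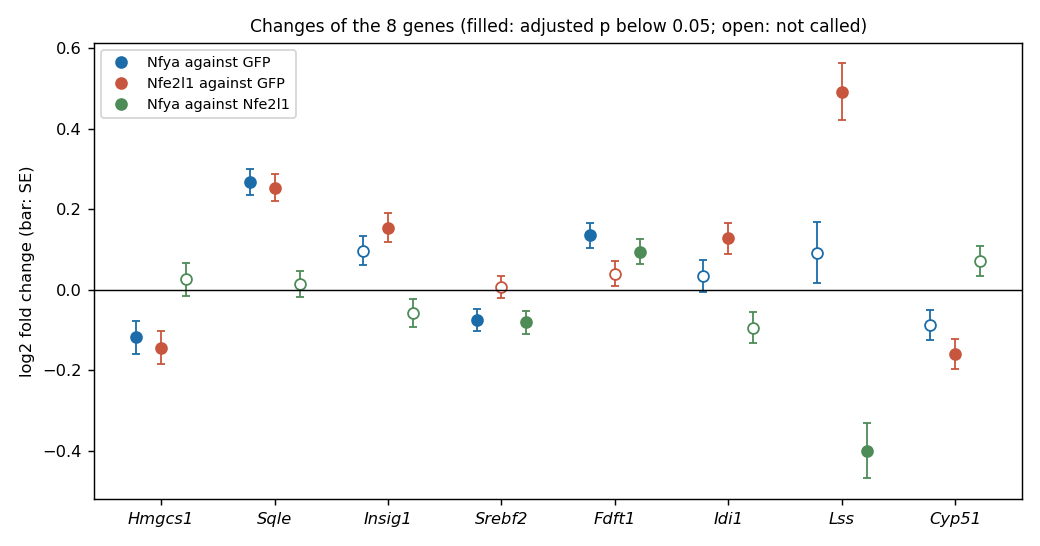
Log2 fold changes (points) with SE (bars) of the 8 genes in each of the 3 comparisons; filled points were called at an adjusted p below 0.05 by edgeR. Lss in the Nfe2l1-labelled libraries lies at 0.49 above GFP, and all other points against GFP lie between -0.16 and 0.27.

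The regulators come first. Srebf2, the gene of SREBP2, had 241, 243 and 238 CPM in Nfya-labelled libraries, 255, 259 and 249 CPM in Nfe2l1-labelled ones and 254, 252 and 253 CPM in GFP libraries. Every Nfya-labelled library was below every other library, while the other groups overlapped. Its log2 fold change against GFP was -0.07 ± 0.03 (SE, adjusted p = 0.0338) in the Nfya-labelled libraries and 0.01 ± 0.03 (adjusted p = 0.869) in the Nfe2l1-labelled libraries. Between the Nfya-labelled and Nfe2l1-labelled libraries it was -0.08 ± 0.03 (adjusted p = 0.0219). The fall against GFP, 5.02% in size, was called in only 6 of 24 alternatives, and its adjusted p ran from 0.0241 to 0.382. It was lost without Nfya replicate 1 or 3, Nfe2l1 replicate 1 or 3, or GFP replicate 1 or 2. The log2 fold change itself moved to -0.04 without Nfe2l1 replicate 1, Nfe2l1 replicate 3 or GFP replicate 1, and to -0.05 without GFP replicate 2. Leaving out an Nfe2l1 library changes no count of the Nfya-labelled or GFP libraries, and other genes moved up with Srebf2. Without Nfe2l1 replicate 1, Sqle went from 0.2674 to 0.3025 and Fdft1 from 0.135 to 0.1696. Of all genes called in this comparison, 46.5% were higher as reported and 53.6% without that library. This share was also 53.6% without Nfe2l1 replicate 3, and 53.8% without GFP replicate 1 or GFP replicate 2. Sqle was then at 0.3029, 0.3005 and 0.302. The share was 53.45% with the 6 libraries compared, 53.97% with a minimum mean of 5 CPM, and 45.26% without GFP replicate 3. In this comparison, values given below for other genes without Nfe2l1 replicate 1 or 3, or GFP replicate 1 or 2, share this shift. Insig1 codes for a protein that retains SREBP2 in the endoplasmic reticulum and is itself a target of SREBP2, so that it closes a feedback loop. It had 113, 113 and 109.9 CPM in Nfya-labelled libraries, 116, 119.8 and 114 CPM in Nfe2l1-labelled ones and 104, 102 and 109 CPM in GFP libraries. The 3 groups did not overlap, with the Nfe2l1-labelled libraries highest and GFP lowest. Insig1 rose by 11.3% in the Nfe2l1-labelled libraries (log2 fold change 0.15 ± 0.04, adjusted p = 0.00142). In the Nfya-labelled libraries its log2 fold change was 0.10 ± 0.04, and the adjusted p of 0.0530 missed the threshold, which it passed in 14 of 24 alternatives, among them those without Nfe2l1 replicate 1 or 3 or GFP replicate 1 or 3.

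Hmgcs1 and Idi1 act in the mevalonate part of the pathway. Hmgcs1, the synthase that forms HMG-CoA in the cytosol, had 311, 315 and 312 CPM in Nfya-labelled libraries, 316, 317 and 289 CPM in Nfe2l1-labelled ones and 333, 325 and 362 CPM in GFP libraries. All 6 libraries of both factor viruses lay below all GFP libraries, and the library of greatest depth was lowest and that of least depth highest. Its log2 fold change against GFP was -0.12 ± 0.04 (adjusted p = 0.0256) in the Nfya-labelled and -0.14 ± 0.04 (adjusted p = 0.00726) in the Nfe2l1-labelled libraries. Without the libraries of extreme depth the values were -0.07 (adjusted p = 0.0243) and -0.05 (adjusted p = 0.145). The first of these calls stood in 9 of 24 alternatives and was lost without Nfya replicate 1 or 3, Nfe2l1 replicate 1 or 3, or GFP replicate 1 or 3 (adjusted p = 0.0653 to 0.143), and its log2 fold change was -0.07 without GFP replicate 3. The change with the Nfe2l1 virus moved to -0.09 without Nfe2l1 replicate 3. Idi1, the isomerase that makes the starter unit for farnesyl diphosphate, had 174, 179 and 181 CPM in Nfya-labelled libraries, 195, 195 and 181 CPM in Nfe2l1-labelled ones and 169.6, 169 and 184 CPM in GFP libraries. One Nfe2l1-labelled library fell within the range of GFP. Idi1 was nevertheless called higher in the Nfe2l1-labelled libraries, by 9.28% (log2 fold change 0.13 ± 0.04, adjusted p = 0.00989). Without the libraries of extreme depth this log2 fold change was 0.20 (adjusted p = 4.44e-05). In the Nfya-labelled libraries it was 0.03 ± 0.04 (adjusted p = 0.508). Idi1 overlaps Wdr37 in the RefSeq annotation, and the library kit was stranded, per the labels, but the strand setting of the counting was not stated there. Wdr37 differed from GFP by -0.18 ± 0.03 in the Nfya-labelled libraries (adjusted p = 2.67e-04) and by -0.04 ± 0.03 in the Nfe2l1-labelled libraries (adjusted p = 0.381).

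Fdft1 and Sqle carry the pathway into squalene and out of it. Fdft1, squalene synthase, had 230.1, 233 and 231 CPM in Nfya-labelled libraries, 217, 222 and 212 CPM in Nfe2l1-labelled ones and 208, 206 and 219 CPM in GFP libraries. The Nfya-labelled libraries lay above all others, and the other groups overlapped. Fdft1 rose by 9.81% in the Nfya-labelled libraries against GFP (log2 fold change 0.14 ± 0.03, adjusted p = 0.00180). In the Nfe2l1-labelled libraries its value was 0.04 ± 0.03 (adjusted p = 0.291). The Nfya-labelled libraries exceeded the Nfe2l1-labelled ones by 0.09 ± 0.03 (adjusted p = 0.0181), a call that was lost without Nfya replicate 2 (adjusted p = 0.0592), with DESeq2 (adjusted p = 0.0957), with the Nfya-labelled libraries summed (adjusted p = 0.0591) and without the libraries of extreme depth (adjusted p = 0.0572). Sqle, squalene epoxidase and a rate-controlling enzyme of the later pathway, had 179, 187 and 191 CPM in Nfya-labelled libraries, 187, 186 and 179 CPM in Nfe2l1-labelled ones and 155, 155 and 153 CPM in GFP libraries. All 6 libraries of both factor viruses lay above GFP, and those of Nfya and Nfe2l1 overlapped each other. Sqle rose by 20.4% in the Nfya-labelled libraries (log2 fold change 0.27 ± 0.03, adjusted p = 5.04e-06). It rose by 19.2% in the Nfe2l1-labelled libraries (0.25 ± 0.03, adjusted p = 6.77e-06). The difference between both virus groups was 0.01 ± 0.03 (adjusted p = 0.745).

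Lss and Cyp51 make and first trim the sterol nucleus. Lss, lanosterol synthase, had 53.9, 45.1 and 46.5 CPM in Nfya-labelled libraries, 67.3, 60.8 and 63.8 CPM in Nfe2l1-labelled ones and 49.6, 44.6 and 41.8 CPM in GFP libraries. The Nfe2l1-labelled libraries lay above all others, and the other groups overlapped. Lss rose by 40.6% in the Nfe2l1-labelled libraries against GFP (log2 fold change 0.49 ± 0.07, adjusted p = 1.69e-05). In the Nfya-labelled libraries its value was 0.09 ± 0.07 (adjusted p = 0.327). Set against the Nfe2l1-labelled libraries, the Nfya-labelled ones fell by 24.2% in Lss (log2 fold change -0.40 ± 0.07, adjusted p = 1.35e-04). Cyp51, the enzyme that demethylates lanosterol, had 252, 258 and 258 CPM in Nfya-labelled libraries, 249.7, 245 and 236 CPM in Nfe2l1-labelled ones and 265, 262 and 289.8 CPM in GFP libraries. The 3 groups did not overlap, with GFP highest and the Nfe2l1-labelled libraries lowest. Cyp51 fell by 10.4% in the Nfe2l1-labelled libraries (log2 fold change -0.16 ± 0.04, adjusted p = 0.00165). Without the libraries of extreme depth the value was -0.09 (adjusted p = 0.0213). In the Nfya-labelled libraries it was -0.09 ± 0.04 (adjusted p = 0.0600), which passed the threshold in 1 of 24 alternatives, with counts corrected for the ceiling (adjusted p = 0.0361). It was -0.04 without GFP replicate 3 (adjusted p = 0.265) and -0.05 without Nfe2l1 replicate 1 or 3 (adjusted p = 0.315 and 0.297).

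**Figure D3:**
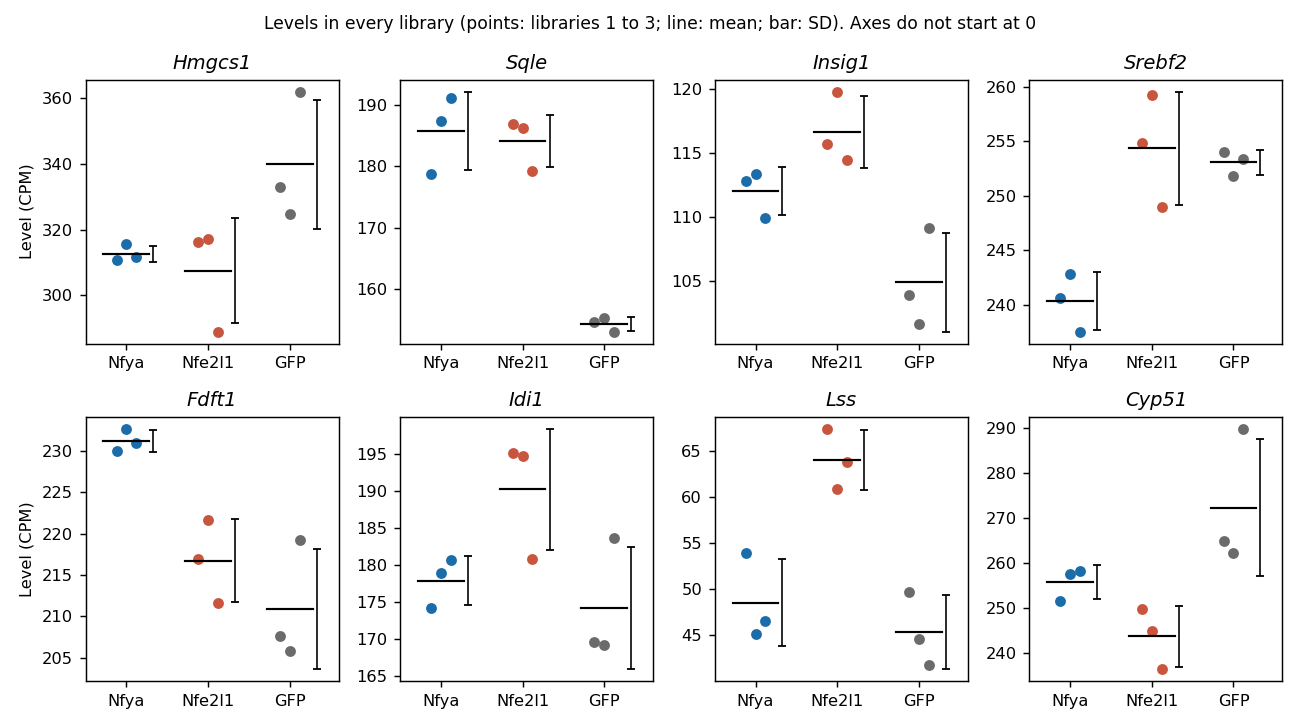
Levels of the 8 genes in every library, in CPM, with the Nfya-labelled and Nfe2l1-labelled libraries left of GFP; points are libraries, lines are means and bars are SD (n = 3), and the vertical axes do not start at 0. Sqle stands at 179 to 191 CPM in libraries of both factor viruses and at 153 to 155 CPM in GFP, while Lss stands at 60.8 to 67.3 CPM in the Nfe2l1-labelled libraries, above all others.

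The profiles of the 8 genes over the 9 libraries were compared by the root mean square difference of log2 levels centred on each gene's mean. The most alike pair was Hmgcs1 and Cyp51, at 0.0290, and the gene farthest from its nearest partner was Lss, at 0.195 from Insig1. Among 11933 other genes with a mean of at least 5 CPM, the one most like each of the 8 is named next. So many candidates hold a close match for nearly any gene, and no distance expected between genes was computed. These were Hspb2 for Hmgcs1 (0.0111), Scn3b for Sqle (0.0216), Cdc37 for Insig1 (0.0197), Lars for Srebf2 (0.0133), Crim1 for Fdft1 (0.0118), Atp6v1d for Idi1 (0.0137), Ift140 for Lss (0.0655) and Ivd for Cyp51 (0.0105).

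The other enzymes of the pathway also moved in both directions. Counts in this and the next lists stand beside 24.3% of all genes called higher and 27.9% lower with the Nfya virus against GFP, and 28.9% higher and 29.7% lower with the Nfe2l1 virus. Of 16 further enzymes, 15 were tested (Lbr was not analysed here). In the Nfya-labelled libraries against GFP 4 rose and 5 fell, with a median log2 fold change of 0.05. In the Nfe2l1-labelled libraries 4 rose and 6 fell, with a median of -0.07. Hsd17b7, a sterol ketoreductase, averaged 39.3 ± 1.71 CPM in the Nfya-labelled, 38.5 ± 2.53 CPM in the Nfe2l1-labelled and 26.5 ± 2.62 CPM in GFP libraries. It rose by 0.56 ± 0.08 (adjusted p = 1.10e-05) and 0.54 ± 0.08 (adjusted p = 1.46e-05) on the log2 scale. Tm7sf2, a sterol reductase, rose by 0.52 ± 0.07 with the Nfya virus and 0.33 ± 0.07 with the Nfe2l1 virus. A pair of late enzymes fell with both viruses. Sc5d, a sterol desaturase, averaged 204 ± 4.02 CPM in the Nfya-labelled, 207 ± 2.31 CPM in the Nfe2l1-labelled and 262 ± 5.01 CPM in GFP libraries (log2 fold changes -0.36 ± 0.03 and -0.34 ± 0.03). Dhcr7, the reductase that makes cholesterol itself in one branch, differed by -0.30 ± 0.04 and -0.47 ± 0.04. Fdps, farnesyl diphosphate synthase, rose by 0.20 ± 0.04 in the Nfe2l1-labelled libraries (adjusted p = 1.38e-04), and the Nfya-labelled libraries lay below these in the direct comparison (log2 fold change -0.15 ± 0.03, adjusted p = 0.00185).

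**Figure D4:**
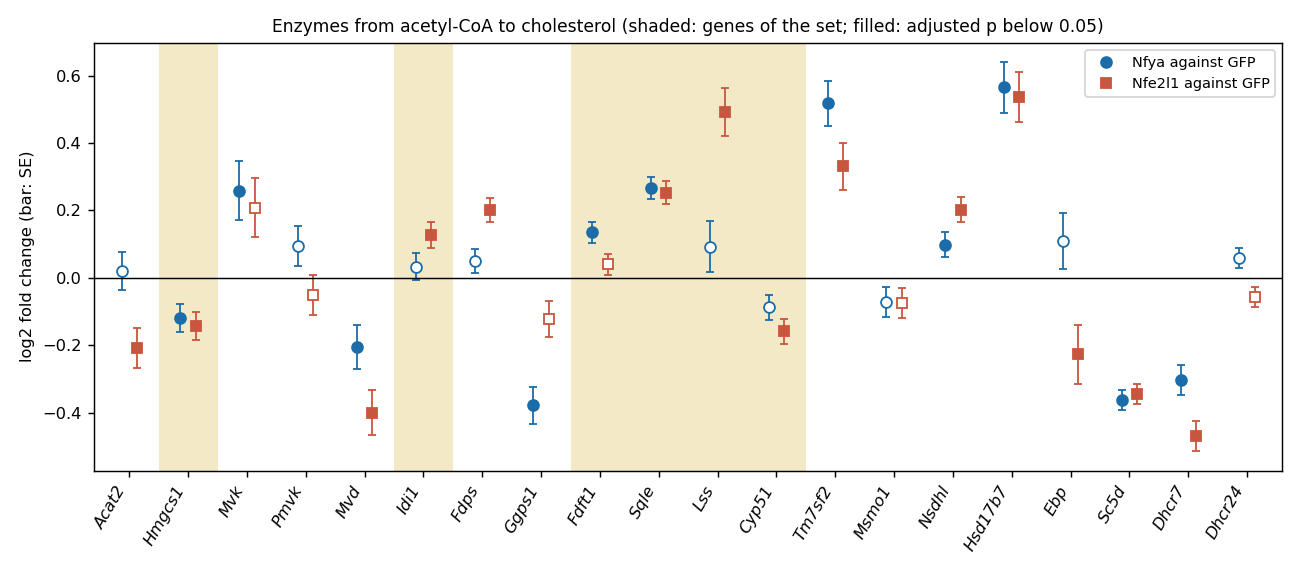
Log2 fold changes against GFP with SE for 20 enzymes in the order of the pathway from acetyl-CoA (left) to cholesterol (right), with Ggps1 as a side branch; circles are Nfya-labelled and squares Nfe2l1-labelled libraries, filled where the adjusted p was below 0.05. Shaded columns mark 6 of the 8 genes of the set; Hsd17b7 and Tm7sf2 lie above 0.3 and Sc5d and Dhcr7 at or below -0.30 with both viruses.

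Genes of cholesterol export and storage moved in both directions, with the largest rise among the listed pathway genes in Abca1. Abca1, the pump that loads cholesterol onto apolipoprotein A-I and a classical target of the sterol receptor LXR, had 297, 308 and 305 CPM in Nfya-labelled libraries, 262, 278 and 281 CPM in Nfe2l1-labelled ones and 108, 100.2 and 92.9 CPM in GFP libraries. The libraries of both factor viruses lay above all GFP libraries, at log2 fold changes of 1.59 ± 0.04 (adjusted p = 2.56e-13) and 1.44 ± 0.04 (adjusted p = 5.96e-13). Soat1, which esterifies cholesterol for storage, rose by 0.77 ± 0.04 and 0.57 ± 0.04. Of 9 genes of export and LXR signalling, 3 rose and 4 fell in the Nfya-labelled libraries, and 5 rose and 2 fell in the Nfe2l1-labelled libraries. Nr1h2, the gene of LXR beta, moved in opposite directions, at -0.24 ± 0.05 in the Nfya-labelled and 0.37 ± 0.04 in the Nfe2l1-labelled libraries, and the direct difference was -0.61 ± 0.05 (adjusted p = 2.15e-08). Other genes of the list went the other way. Abcg1, which also exports cholesterol and is also an LXR target, fell by 0.28 ± 0.07 in the Nfya-labelled libraries (adjusted p = 0.00209), and its value was -0.0076 ± 0.06 in the Nfe2l1-labelled libraries (adjusted p = 0.927). Ch25h, a sterol hydroxylase, had 4, 9 and 13 counts in Nfya-labelled libraries, 2, 4 and 2 counts in Nfe2l1-labelled ones and 20, 17 and 12 counts in GFP libraries, with log2 fold changes of -0.97 ± 0.35 (adjusted p = 0.0295) and -2.64 ± 0.45 (adjusted p = 1.01e-04). The first of these calls was lost without Nfya replicate 1 (-0.64, adjusted p = 0.145), Nfya replicate 2, GFP replicate 1 or GFP replicate 2. Cyp27a1, a mitochondrial sterol hydroxylase, differed from GFP by -0.43 ± 0.07 and -0.51 ± 0.07. The summed levels of fibroblast and epicardial markers were also higher than in GFP with both viruses, as given above, and the part of this in the change of Abca1 was not tested.

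Among 8 genes of uptake and trafficking, 4 rose and 1 fell in the Nfya-labelled libraries, and 1 rose and 2 fell in the Nfe2l1-labelled libraries. Stard4, a sterol carrier and SREBP2 target, fell by 0.26 ± 0.04 in the Nfya-labelled (adjusted p = 7.73e-05) and by 0.47 ± 0.04 in the Nfe2l1-labelled libraries (adjusted p = 1.44e-07). Tmem97, which binds the cholesterol transporter NPC1, averaged 70.2 ± 2.14 CPM in the Nfya-labelled, 45.3 ± 2.71 CPM in the Nfe2l1-labelled and 58.4 ± 2.21 CPM in GFP libraries. It was higher than GFP by 0.26 ± 0.05 with the first virus and lower, at -0.37 ± 0.05, with the second, and the direct difference was 0.63 ± 0.05 (adjusted p = 4.54e-08).

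Of 12 genes that process or control SREBP, 3 rose and 1 fell in the Nfya-labelled libraries, and 7 rose and 2 fell in the Nfe2l1-labelled libraries. Over all genes 52.2% were called in either direction in the first comparison and 58.6% in the second. In the direct comparison the Nfya-labelled libraries were higher in 2 and lower in 5 of the 12. There, 25.2% of all genes were called higher and 25.4% lower. Srebf1, the gene of the sister factor SREBP1, averaged 88.9 ± 2.91 CPM in the Nfya-labelled, 113 ± 8.44 CPM in the Nfe2l1-labelled and 81.1 ± 1.09 CPM in GFP libraries. It rose by 0.49 ± 0.05 in the Nfe2l1-labelled libraries (adjusted p = 3.79e-07). In the Nfya-labelled libraries it rose by 0.13 ± 0.05 (adjusted p = 0.0430), a call lost in 9 of 24 alternatives. Srebf1 lay lower in the Nfya-labelled than in the Nfe2l1-labelled libraries, at -0.36 ± 0.05 (adjusted p = 1.22e-05). Faf2, which helps extract INSIG1 and other proteins from the endoplasmic reticulum for degradation, rose by 0.47 ± 0.03, and Erlin1, a membrane scaffold that binds SCAP and INSIG1 complexes, by 0.26 ± 0.04, both in the Nfe2l1-labelled libraries. Scap, the escort of SREBP, fell there by 0.26 ± 0.04. Mbtps1, the protease that makes the first cut in SREBP, rose by 0.15 ± 0.03 in the Nfya-labelled and by 0.18 ± 0.03 in the Nfe2l1-labelled libraries. Over all 44 further pathway genes tested, 14 rose and 11 fell in the Nfya-labelled libraries, and 17 rose and 12 fell in the Nfe2l1-labelled libraries. Without Nfya replicate 2 the count of 14 was 9. Nfyb and Nfyc, the partner subunits of NFYA, differed from GFP by -0.0041 ± 0.04 and -0.01 ± 0.04 in the Nfya-labelled libraries, and by -0.09 ± 0.05 and -0.04 ± 0.04 in the Nfe2l1-labelled libraries, and neither was called.

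**Figure D5:**
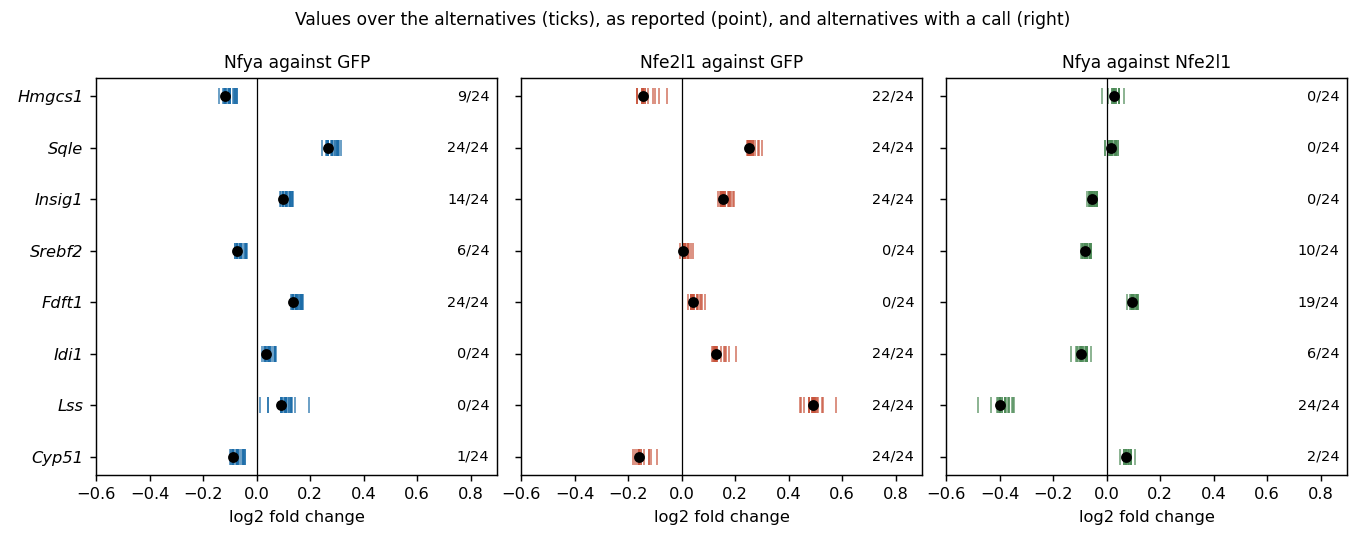
Log2 fold changes of the 8 genes under 24 alternative settings (ticks) and as reported (point), with the number of alternatives that made a call at the right of each row. Sqle was called in 24 of 24 alternatives against GFP with both viruses, and Srebf2 in 6 with the Nfya virus and 0 with the Nfe2l1 virus.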

How the data were processed

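Per the submitters' processing notes, FastQC 0.11.4, featureCounts 1.6.0 and edgeR 3.20.5 were used, and the builds rn6, mm10 and GRCm38 are named; the aligner, treatment of duplicate reads and strand setting: not given in the sources used here. The authors deposited whole-number counts per gene symbol, RPKM values computed from them, and, for each virus against GFP, log2 fold changes, a likelihood ratio score, and p-value and FDR columns, per the file headers. The Length column deposited by the authors gave counts per base.

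Counts were tested in R 4.3.3 with edgeR 4.0.16: filterByExpr by group, TMM scaling and the quasi-likelihood F test over all 9 libraries, modelled by group alone, adjusted by Benjamini-Hochberg over 14151 genes. The SE was obtained by dividing the size of the log2 fold change by the root of F. For some genes, among them Insig1 with the Nfya virus against GFP, the p-value given by edgeR was larger than this SE implies. The SE of log2 fold changes, in the text and as bars in the figures, can therefore understate the error. Calls rest on the adjusted p and not on the SE. The test script was tested on simulated data. Alternatives used DESeq2 1.42.0, limma 3.58.1 on log2(RPKM + 0.5) and log2(RPKM + 1), other scalings and filters, and each library left out. The replicate numbers did not pair the libraries. The 8 genes and the gene lists were chosen with earlier results of these data known. Named were the 8 genes, NF-Y subunits and Nfe2l1, listed pathway genes called in at least 1 comparison, and each gene's nearest profile. Summed marker levels rest on lists for cardiomyocytes, fibroblasts, endothelium, smooth muscle, macrophages and epicardium. Depth limits precision for Lss most among the 8 genes. Single values of some listed pathway genes are not reported here, though the list counts hold them.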

Additional observations from a re-analysis of the deposited data

How the results depend on the processing

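The higher calls against GFP held in all 24 alternatives (2 to 3 of the 8 genes with the Nfya virus, 4 with the Nfe2l1 virus). Of the 8 genes, 2 were called lower with the Nfya virus against GFP. This count was 3 with counts corrected for the ceiling, and 1 with RLE scaling, library totals or no filter. It was 0 with DESeq2, a minimum mean of 5 CPM, the 6 libraries compared, a threshold of 0.01, each of the 3 limma fits or the Nfya libraries summed, and 0 to 2 with a library left out. The count of 2 lower in the Nfe2l1-labelled libraries was 1 without the libraries of extreme depth and 1 to 2 with a library left out. Between both viruses, 1 gene was higher: 0 with DESeq2, a threshold of 0.01, the libraries of like depth or the Nfya libraries summed, 2 with library totals, and 0 to 2 with a library left out. There, 2 were lower: 1 with DESeq2, library totals, the 5 CPM minimum, a threshold of 0.01, limma with 0.5 or 1 added, or the Nfya libraries summed, and 1 to 3 with a library left out. The 14 pathway genes higher with the Nfya virus were 8 with DESeq2 or at 0.01, and 9 to 17 with a library left out. DESeq2 called 2486 genes lower with the Nfya virus against GFP (3953 with edgeR) and 2392 against Nfe2l1 (3597 with edgeR). Signs turned round for uncalled differences only: Srebf2, Nfe2l1 against GFP, was -0.00616 to 0.0358 with a library left out, and negative without Nfe2l1 replicate 2; and, between both viruses, Sqle was -0.00756 (without Nfya replicate 3) to 0.0416 with a library left out and -0.00676 without the libraries of extreme depth, where Hmgcs1 was -0.0196. The cause was not tested. Same-numbered libraries did not deviate together (r from -0.0655 to 0.0485 over 9 pairs). With the number as a replicate block, 2 of the 8 genes were higher and 0 lower with the Nfya virus against GFP, 4 and 2 with the Nfe2l1 virus, and 1 and 2 between them. With the Nfya libraries summed, the lone sample is assumed to vary like the other groups.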
